A study of Mus musculus with 8 samples.

Results

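The amino acid and peptide transporters of 4 mouse organs are described here. They are the genes of the solute carrier families Slc1, Slc3, Slc6, Slc7, Slc15, Slc36, Slc38 and Slc43, taken by symbol from the whole table of values, with the creatine transporter of the Slc6 family left out. The rule found 71 of the 52195 genes, and it used no measured value. RNA was taken from normal kidney, lung, liver and small intestine of male C57BL/6J mice (C57BL/6 in the sample labels) at 6 to 10 weeks of age, without treatment or genetic change. Whole organs were washed, ground under liquid nitrogen and sequenced as polyadenylated RNA, with 2 libraries for each organ from separate mice and 8 in all. Every library is thus a mixture of the cell types of an organ, and the blood, vessels and tissue that came with it.

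Amino acids cross cell membranes only through carriers. In the absorbing epithelia of the small intestine and of the renal proximal tubule, one set of carriers in the brush border takes amino acids and small peptides in, driven by sodium, protons or exchange, and another set in the basolateral membrane passes them on to the blood. Several carriers of the Slc7 family are light chains that reach the membrane only when bound to a heavy chain of the Slc3 family. In liver, amino acid carriers feed the urea cycle, gluconeogenesis and protein synthesis, and elsewhere related carriers clear neurotransmitters or take up osmolytes.

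The files hold FPKM, fragments per kilobase of transcript scaled to the mapped fragments of a library, which can be compared between genes because they are given per length. The depth recovered from the steps of low values was between 9164187 and 21444675 reads in a library, and 3 reads on a gene with 1 kb of exons corresponded to an FPKM of 0.140 to 0.327. Differences between 1 tissue and the mean of the other 3 were fitted with limma on log2(FPKM + 1), over 16328 genes that reached an FPKM of 1 in 2 or more libraries. The median difference of all these genes was 0.82 in lung and -0.72 in liver on the values as deposited, and -0.02 and -0.14 after the libraries had been scaled by the median of ratios. A gene was therefore called only where the adjusted p was under 0.05 and the difference over 1 in the same direction on both scales. Differences below are log2 differences of the deposited values with their standard error, unless scaled values are named. The labelled organs held their markers: proximal tubule genes (Slc5a2, Slc5a12, Slc34a1 and Lrp2) summed to 789 to 1236 FPKM in kidney against at most 34.8 elsewhere, hepatocyte genes (Alb, Apob, Cyp2e1 and Ttr) to 34803 to 40681 in liver against at most 500.1, enterocyte genes (Fabp2, Vil1, Sis and Apoa4) to 5672 to 7468 in small intestine against at most 62.0, and alveolar type 2 genes (Sftpc, Sftpb and Lamp3) to 13181 to 15177 in lung against at most 18.1. The small intestine libraries also held pancreatic acinar genes at 2423 and 1089 FPKM in sum, and the lung libraries cardiac muscle genes at 216 and 222.

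Light chains led the summed level of the transporters in both kidney and small intestine, Slc38 carriers in liver and Slc43 carriers in lung. In kidney and lung a single gene made up most of the leading role. Slc7a13 gave 583 and 667 of the 689 and 748 FPKM of light chains in kidney. Slc43a3 gave 125 and 116 of the 139 and 130 FPKM of Slc43 carriers in lung. The 71 genes summed to 1286 and 1132 FPKM in the kidney libraries, 622 and 758 in small intestine, 617 and 556 in liver, and 487 and 474 in lung. After scaling the order changed, as kidney had 1248 and 1575, liver 1117 and 886, small intestine 563 and 724, and lung 268 and 249.6. In kidney, light chains of heteromeric carriers took 53.6% and 66.0% of this sum. In small intestine light chains took 24.2% and 24.7% and the Slc6 amino acid carriers 22.2% and 22.9%. The sodium-coupled Slc38 carriers made up 69.7% and 66.9% of the sum in liver, against 2.28% to 6.17% in kidney and small intestine. In lung the Slc43 carriers came first, with 28.5% and 27.5%, and the Slc38 carriers next, with 16.0% and 17.6%. A mean FPKM of 1 or more was reached by 28 members in kidney, 31 in small intestine, 20 in liver and 38 in lung. Only 10 members reached it in all 4 organs and 19 in none.

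**Figure D1:**
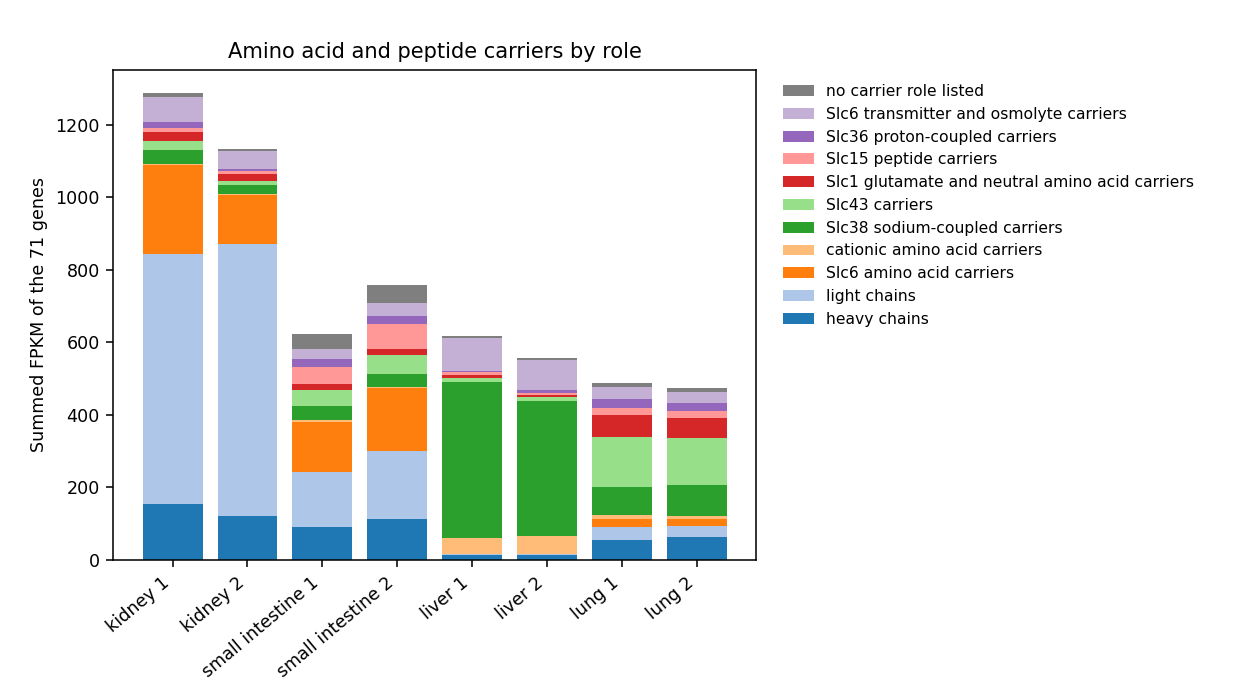
Summed FPKM of the 71 genes in each of the 8 libraries, stacked by the role of the carrier. Light chains fill 53.6% and 66.0% of the kidney bars, and Slc38 carriers 69.7% and 66.9% of the liver bars.

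Of the 71 members, 51 passed the filter on low values and were tested. In kidney 13 were called higher and 11 lower, where 8.62% and 11.9% of all genes tested were so called. In small intestine 13 were higher and 12 lower, against 12.8% and 10.5% of all genes. In liver 6 were higher and 21 lower, against 6.56% and 13.9%, and in lung 10 were higher and 14 lower, against 14.6% and 8.26%. As shares of the 51 members these were 25.5% and 21.6% in kidney, 25.5% and 23.5% in small intestine, 11.8% and 41.2% in liver, and 19.6% and 27.5% in lung. On the deposited scale alone the counts were 6 and 29 in liver, against 6.56% and 32.7% of all genes, and 19 and 14 in lung, against 40.7% and 8.26%. On the scaled values alone they were 10 and 21 in liver, against 12.3% and 13.9%, and 10 and 18 in lung, against 14.6% and 16.0%. The median difference of the tested members in liver was -1.14 as deposited and -0.75 scaled, below the medians of all genes. In lung it was 0.50 as deposited and -0.14 scaled, also below the medians of all genes. In all 6 members (11.8%) were called higher in more than one organ, as were 3.87% of all genes tested. Slc3a1, Slc6a19, Slc7a7, Slc7a8 and Slc7a9 were higher in both kidney and small intestine, and Slc6a13 in both kidney and liver. Leaving out a library removes genes that reach an FPKM of 1 in 1 organ alone from the test. The count called higher in lung was 4 without either lung library, since the other 6 no longer passed the filter. The count called lower in kidney was 7 without either lung library for the same reason.

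**Figure D2:**
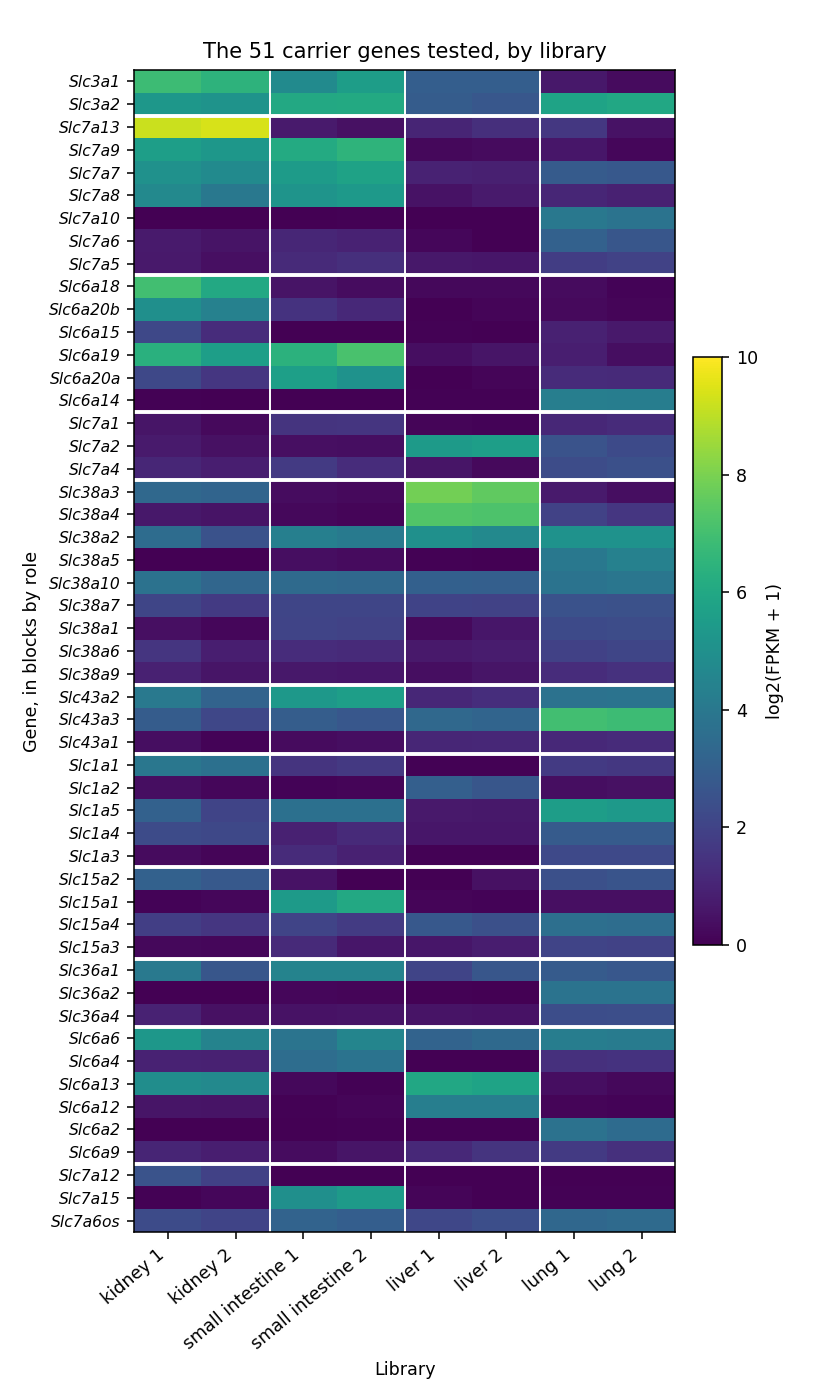
The 51 members tested, as log2(FPKM + 1) in each library, in blocks by role from the heavy chains at the top to genes with no carrier role listed at the bottom. The brightest cells are Slc7a13 in both kidney libraries, and Slc38a3 and Slc38a4 in both liver libraries.

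Slc3a1 (rBAT) is the heavy chain of the cystine and dibasic amino acid carrier, whose light chain Slc7a9 (b0,+AT) sits with it in the brush border. Slc3a1 was at 116 and 87.4 FPKM in kidney, 26.9 and 46.2 in small intestine, 6.86 and 6.93 in liver and 0.577 and 0.209 in lung. All kidney values were above all others, and the liver values lay above both lung values. Its log2 difference was 3.79 ± 0.23 in kidney (adjusted p = 1.11e-05, limma) and 1.81 ± 0.23 in small intestine (adjusted p = 3.60e-04). Of the exon positions of Slc3a1, 26.5% are shared with Prepl on the opposite strand, and whether the counting used strand is not given in the sources used here, so reads of the 2 genes cannot be told apart there. The same holds for 28.1% of the exon positions of Slc15a3, 17.9% of Slc7a10 and 14.3% of Slc6a20a, described below.

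Slc7a9 was at 47.5 and 38.2 FPKM in kidney and at 68.8 and 88.6 in small intestine, and at 0.1203 to 0.536 in the 4 liver and lung libraries. The absorbing organs did not overlap with the others. The differences were 3.13 ± 0.18 in kidney (adjusted p = 9.75e-06, limma) and 4.28 ± 0.18 in small intestine (adjusted p = 1.35e-06). Slc7a13 (AGT1), a light chain for cystine, aspartate and glutamate that is known to join Slc3a1 in the straight part of the proximal tubule, had the highest value of any member. It was at 583 and 667 FPKM in kidney, 0.649 and 0.371 in small intestine, 1.07 and 1.54 in liver and 2.105 and 0.413 in lung. Kidney exceeded the other organs by 8.34 ± 0.28 on the log2 scale as deposited and 8.53 scaled (adjusted p = 8.72e-07, limma). This gene alone made up 51.7% of the mean sum of the 71 members in kidney, and the others together summed to 585 FPKM there. Outside kidney its values moved with those of other kidney genes: Umod and Slc12a1 of the thick ascending limb summed to 0.303 to 3.01 FPKM in those 6 libraries and were highest in lung replicate 1, as was Slc7a13, and their part in the low values was not tested.

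Slc3a2 (4F2hc, CD98) is the heavy chain of the basolateral and widely used carriers. It was at 38.2 and 34.6 FPKM in kidney, 64.8 and 66.9 in small intestine, 6.43 and 5.65 in liver and 54.01 and 63.2 in lung. Liver lay below all other libraries, with a difference of -2.91 ± 0.12 (adjusted p = 1.01e-06, limma), and small intestine was called higher with 1.42 ± 0.12 (adjusted p = 4.27e-05).

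A pair of its light chains belongs to the basolateral membrane of absorbing epithelia, Slc7a7 (y+LAT1), which releases cationic amino acids, and Slc7a8 (LAT2), an exchanger of neutral ones. Slc7a7 was at 32.5 and 26.8 FPKM in kidney, 43.4 and 53.4 in small intestine, 0.955 and 0.818 in liver and 6.302 and 5.704 in lung. Slc7a8 was at 25.2 and 15.03, 35.3 and 41.9, 0.414 and 0.639 and 1.105 and 0.9003 FPKM in the same order. Both were thus higher in every kidney and intestine library than in any liver or lung library, and Slc7a7 exceeded Slc7a8 in both lung libraries. Slc7a7 was called higher in small intestine by 2.74 ± 0.14 and in kidney by 1.82 ± 0.14 (adjusted p = 3.66e-06 and 3.93e-05, limma). Slc7a8 was called higher by 3.31 ± 0.21 and 2.06 ± 0.21 (adjusted p = 8.93e-06 and 1.25e-04). The lower value of Slc7a7 in lung, -1.01 ± 0.14, was at the edge of the threshold of 1, and was no longer called without kidney replicate 1 (-0.97), small intestine replicate 2 (-0.97), liver replicate 1 (-0.997) or lung replicate 2 (-0.95).

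The other light chains of Slc3a2 had their highest values in lung. Slc7a10 (Asc-1), an exchanger of small neutral amino acids that is also known as a surface protein of fat cells, was at 15.04 and 12.9 FPKM in lung and at 0 to 0.0418 elsewhere, where 5 of 6 libraries were at 0. Slc7a6 (y+LAT2) was at 7.57 and 5.46 FPKM in lung and at 0.0212 to 1.12 elsewhere, a difference of 2.31 ± 0.15 (adjusted p = 6.53e-06, limma). The lung values of both genes stood clear of all other libraries, but Slc7a10 passed the filter only through the lung libraries. Slc7a5 (LAT1), the carrier of large neutral amino acids in growing cells, was at 2.54 and 2.97 FPKM in lung and 0.343 to 1.52 elsewhere, and was called in no tissue. Slc7a11 (xCT), which exchanges cystine for glutamate, did not pass the filter, with 0.383 and 0.433 FPKM in lung, from 52 and 75 reads, and 0.00415 to 0.0614 elsewhere.

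**Figure D3:**
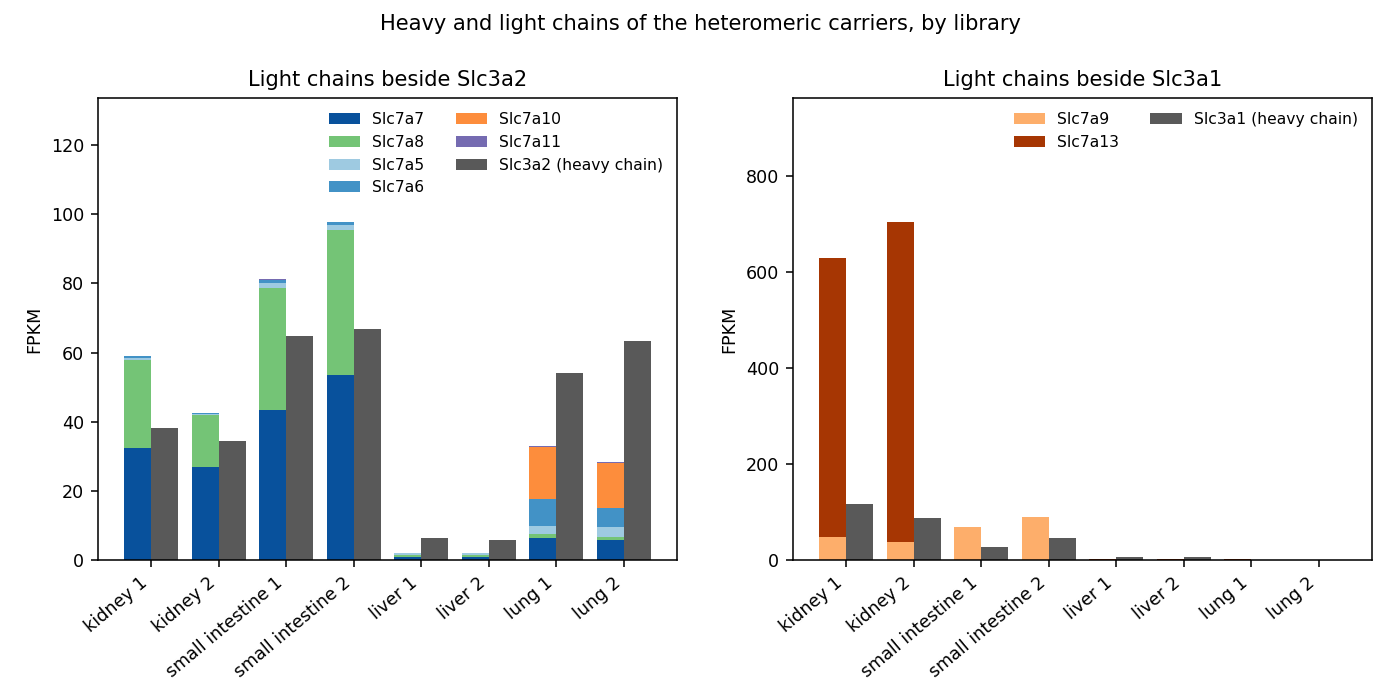
FPKM of the light chains, stacked, beside their heavy chain in each library, on the left for Slc3a2 and on the right for Slc3a1. Slc7a7 and Slc7a8 fill nearly the whole light chain bar in kidney and small intestine, Slc7a10 is the largest piece in lung, and Slc7a13 exceeds Slc3a1 in both kidney libraries.

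The balance of light and heavy chains within a library does not depend on scaling between libraries. The summed FPKM of the 6 light chains over Slc3a2 was 1.54 and 1.23 in kidney, 1.25 and 1.46 in small intestine, 0.320 and 0.355 in liver, and 0.610 and 0.448 in lung. The absorbing organs were above 1 and the others below it in every library. Slc7a7 made up 55.1% and 62.9% of the light chain sum in kidney and 53.5% and 54.6% in small intestine, with Slc7a8 nearly all of the rest, while in lung Slc7a10 gave 45.7% and 45.4%. The ratio of liver to the rest was -1.56 on the log2 scale, with an exact permutation p of 0.0357, two-sided, which is the smallest that 2 of 8 libraries allow. Adjusted over the 8 ratio tests it was 0.143, and no ratio test passed 0.05. With Slc7a10 and Slc7a11 both left out of the sum, the liver difference was -1.26 (exact permutation p = 0.357) and the lung difference went from -0.71 to -1.62 (exact permutation p = 0.107), so that lung was lowest. For Slc3a1, its light chains Slc7a9 and Slc7a13 over the heavy chain gave 5.44 and 8.06 in kidney, 2.58 and 1.92 in small intestine, 0.180 and 0.253 in liver, and 4.58 and 2.55 in lung, where all 3 genes were low. The liver difference of -4.11 had the same exact permutation p of 0.0357 and adjusted p of 0.143. In small intestine 99.1% and 99.6% of these light chains were Slc7a9, and in kidney 92.5% and 94.6% were Slc7a13.

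Among the Slc6 carriers of neutral amino acids, 4 of the 6 tested were called higher and 1 lower in kidney (8.62% and 11.9% of all genes), 2 higher and 2 lower in small intestine (12.8% and 10.5%), 5 lower in liver (13.9%), and 1 higher and 4 lower in lung (14.6% and 8.26%). Slc6a19 (B0AT1), the main sodium-coupled carrier of neutral amino acids in both brush borders, was at 80.6 and 48.3 FPKM in kidney and 85.8 and 138 in small intestine, where it led all members. In the 4 liver and lung libraries it was at 0.283 to 0.777, without overlap. The differences were 4.43 ± 0.26 in small intestine and 3.38 ± 0.26 in kidney (adjusted p = 6.69e-06 and 3.64e-05, limma). Slc6a18 (B0AT3), a carrier of glycine and alanine known from the late proximal tubule, lies 1.721 kb from Slc6a19 on chromosome 13 and had a different pattern. It was at 126 and 64.2 FPKM in kidney but only 0.459 and 0.2599 in small intestine, 0.148 and 0.153 in liver and 0.232 and 0.0729 in lung. Its difference in kidney was 6.23 ± 0.25 (adjusted p = 1.62e-06, limma).

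Another pair of neighbours parted between the absorbing organs. Slc6a20a (at chr9:123634770-123678885 in GRCm38) and Slc6a20b (at chr9:123590800-123632565) lie 2.204 kb apart on the minus strand and encode sodium-coupled carriers of imino acids such as proline, both often called SIT1 or XT3. Slc6a20b was at 30.8 and 20.3 FPKM in kidney, 1.76 and 1.200 in small intestine, 0.0128 and 0.102 in liver and 0.1799 and 0.0942 in lung. Slc6a20a was at 3.51 and 1.99 in kidney, 49.3 and 33.1 in small intestine, 0 and 0.0949 in liver and 1.35 and 1.26 in lung. The order of the 2 genes was thus opposite in kidney and intestine in all 4 libraries. Kidney minus small intestine was 3.401 ± 0.23 for Slc6a20b and -3.497 ± 0.26 for Slc6a20a (adjusted p = 1.60e-05 and 2.63e-05, limma). The transcripts share sequence: 32.0% of the words of 31 bases in Slc6a20a and 31.5% of those in Slc6a20b also occur in another gene, for Slc6a20a most often in Slc6a20b, so the low value of each gene is uncertain where the other is high. Slc6a20b also shares 21.1% of its exon positions with Sacm1l on the opposite strand.

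Slc6a15 (B0AT2), a carrier of branched-chain amino acids and proline best known from brain, was called higher in kidney with 3.49 and 1.38 FPKM against 0 to 0.912 elsewhere. Slc6a14 (ATB0,+), which takes up neutral and cationic amino acids with sodium and chloride, was at 18.6 and 17.6 FPKM in lung, at 0 in both intestine libraries and at 0.0168 to 0.0543 in kidney and liver. It was higher in lung by 4.23 ± 0.11 as deposited and 3.39 scaled (adjusted p = 2.97e-07, limma).

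**Figure D4:**
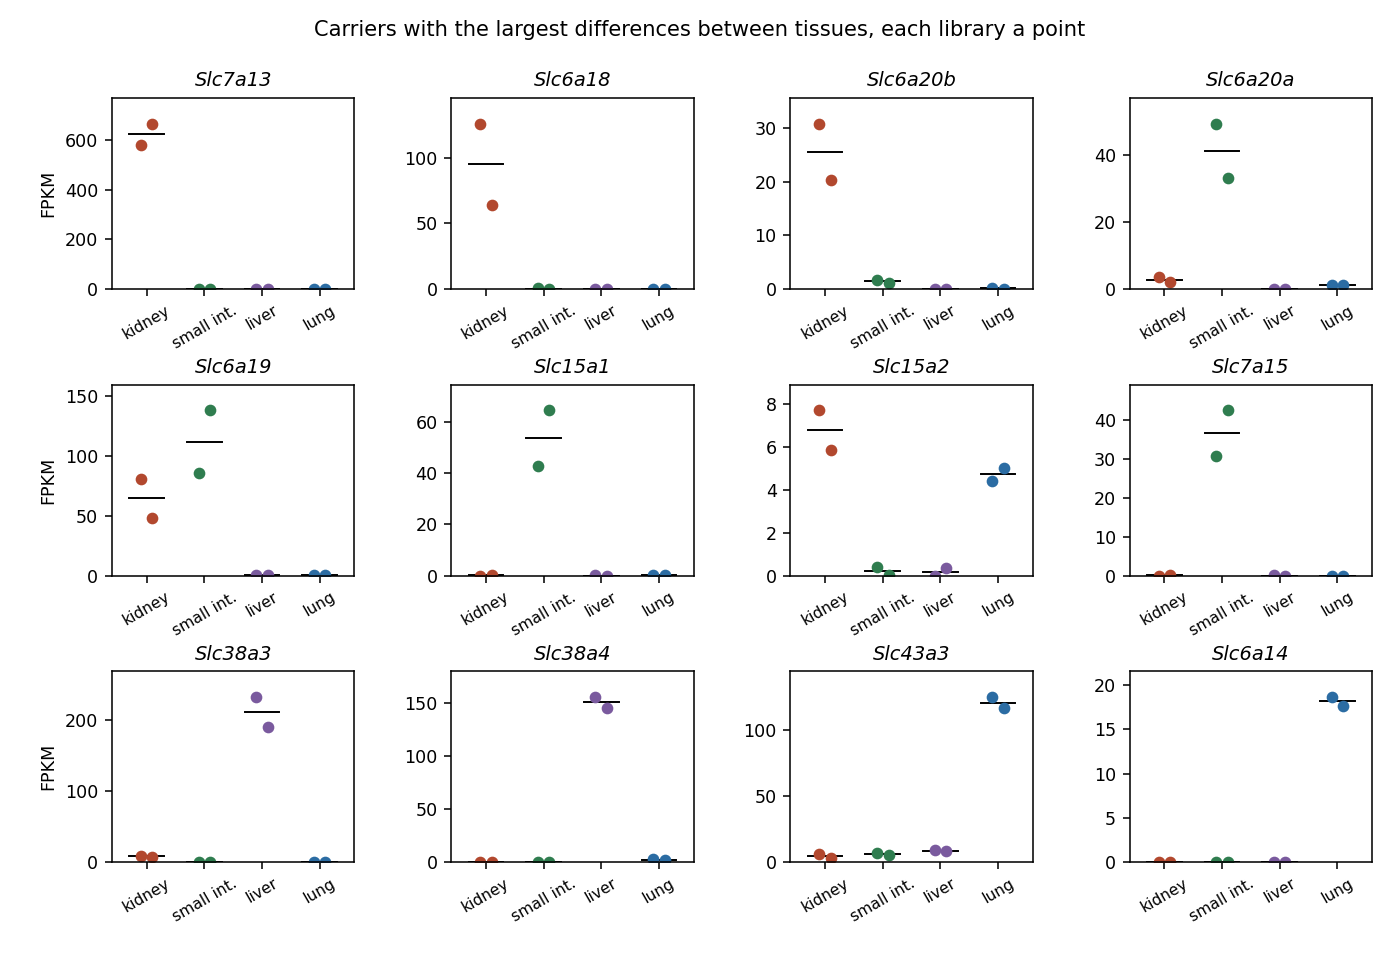
FPKM of 12 members in each library, with points for the 2 libraries of a tissue and a line at their mean, and each axis starting at 0. Slc6a20b and Slc6a20a, and Slc15a2 and Slc15a1, are high in different organs, while Slc6a19 is high in both kidney and small intestine.

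Kidney and small intestine were also set against each other in the same fit. Of the 51 members 11 were higher in kidney and 7 in small intestine, where 10.7% and 15% of all genes were. Slc7a13 had the largest kidney excess, 8.698 ± 0.35, followed by Slc6a18 with 6.07 ± 0.30, Slc6a13 with 4.69 ± 0.17 and Slc6a20b. On the intestinal side the peptide carrier Slc15a1 came first with -5.61 ± 0.22, then Slc7a15 with -5.105 ± 0.19, Slc6a20a and the serotonin carrier Slc6a4 with -2.73 ± 0.16. The members shared by the 2 organs differed less. Kidney minus small intestine was -0.79 ± 0.32 for Slc6a19 (95% interval -1.54 to -0.05), -0.86 ± 0.22 for Slc7a9 (-1.38 to -0.34), -0.94 ± 0.25 for Slc7a8 (-1.53 to -0.36) and -0.69 ± 0.17 for Slc7a7 (-1.096 to -0.28). None of these 4 passed both thresholds, and Slc3a1 was the 1 shared member that did, higher in kidney by 1.49 ± 0.28 (adjusted p = 0.00326, limma). The count higher in small intestine was 4 without small intestine replicate 2, where Slc15a1 and Slc7a15 no longer passed the filter and Slc7a1 fell short of the call.

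**Figure D5:**
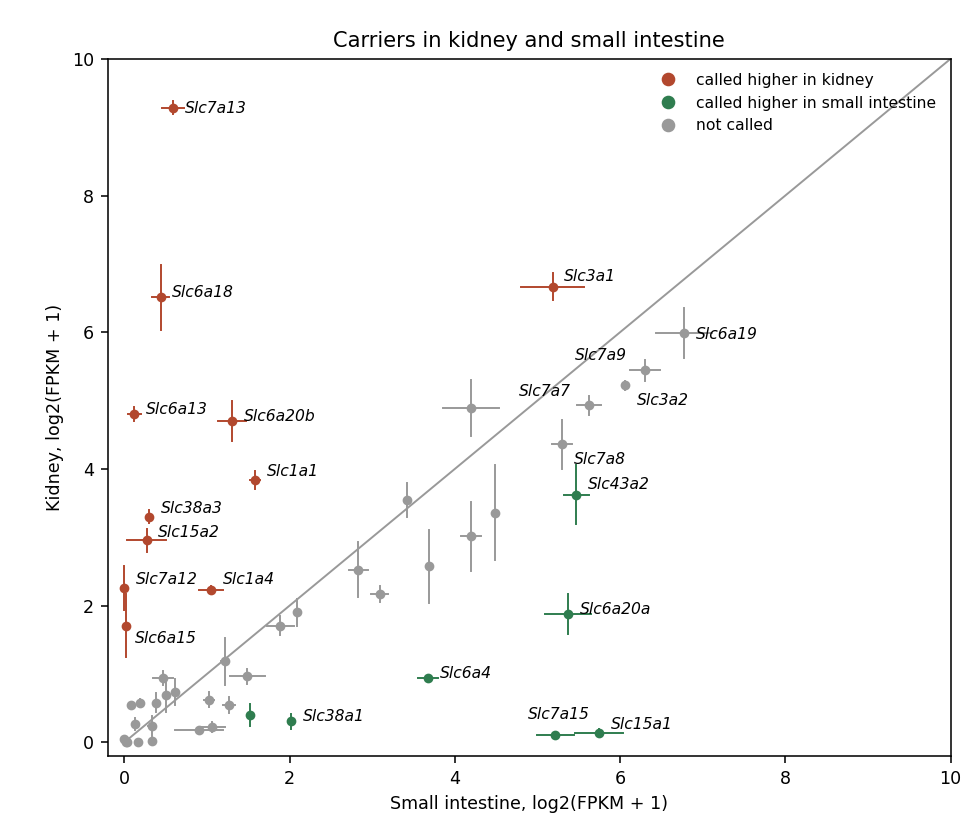
Mean log2(FPKM + 1) of the 51 members tested in kidney against small intestine, with lines from the lower to the higher library and a diagonal of equal level. Slc7a13, Slc6a18, Slc6a13 and Slc6a20b stand near the kidney axis, Slc15a1, Slc7a15 and Slc6a20a near the intestine axis, and Slc6a19, Slc7a9, Slc7a7, Slc7a8 and Slc3a2 just below the diagonal.

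The proton-coupled peptide carriers divided in the same way. Slc15a1 (PepT1), which absorbs di- and tripeptides from the gut lumen, was at 42.8 and 64.5 FPKM in small intestine, 0.0573 and 0.142 in kidney, 0.112 and 0.0793 in liver and 0.335 and 0.346 in lung. Its intestinal excess was 5.51 ± 0.18 (adjusted p = 4.08e-07, limma). Slc15a2 (PepT2), the high-affinity carrier that recovers peptides in kidney, was at 7.72 and 5.88 FPKM in kidney, 4.44 and 5.05 in lung, 0.421 and 0.02400 in small intestine and 0 and 0.368 in liver. Kidney was called higher with 1.95 ± 0.20 (adjusted p = 1.46e-04, limma), and the kidney libraries lay above those of lung on both scales. Within a library Slc15a1 exceeded Slc15a2 by 102-fold in small intestine replicate 1, while no fold is given for replicate 2, where Slc15a2 had 2 reads. The ratio was 0.00742 and 0.0241 in kidney and 0.0756 and 0.0685 in lung. Slc15a3 and Slc15a4, which carry histidine and peptides in lysosomes of immune cells, were at 3.11 and 2.97 and 11.4 and 11.04 FPKM in lung, their highest as deposited, and were called in no tissue. After scaling Slc15a4 was higher in liver (10.5 and 6.97) than in lung (6.29 and 5.81). Macrophage genes (Adgre1, Cd68 and Csf1r) summed to 75.3 and 70.1 FPKM in lung against 6.70 to 25.5 elsewhere as deposited, and after scaling to 41.5 and 36.9 in lung and 37.9 and 29.0 in liver, and their part in these values was not tested.

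Peptides reach these carriers after cleavage by brush border peptidases. The list of them, chosen with the earlier results known, held 11 genes, of which Cndp2 is a cytosolic dipeptidase and is left out of the counts here. The other 10 were all called higher in small intestine, where 12.8% of all genes were. In kidney 4 were higher, namely the meprins Mep1a and Mep1b, the glutathione-degrading enzyme Ggt1 and the dipeptidase Dpep1, and 2 were lower, Anpep and Dpp4 (8.62% and 11.9% of all genes). In liver 7 were lower (13.9%), and in lung 1 was higher and 4 were lower (14.6% and 8.26%). Tmem27 (collectrin), which carries the B0AT proteins to the membrane in kidney, was at 732 and 878 FPKM in kidney and 0.346 and 0.686 in small intestine.

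Slc7a15 is a further gene of the Slc7 family, for which no role is given here. It was at 30.8 and 42.6 FPKM in small intestine and 0 to 0.116 in the other 6 libraries, an excess of 5.13 ± 0.16 (adjusted p = 3.54e-07, limma). Slc7a12, likewise without a role given here, was at 4.96 and 2.82 FPKM in kidney and at 0 in all 6 other libraries. Slc36a1 (PAT1), a proton-coupled carrier of small neutral amino acids, was at 21.5 and 21.5 in small intestine, 15.6 and 5.36 in kidney, 3.14 and 5.44 in liver and 6.37 and 5.55 in lung. Its intestinal excess was 1.65 ± 0.34 (adjusted p = 0.00489, limma), and the spread between the kidney libraries was the widest among these values. Slc43a2 (LAT4), which lets large neutral amino acids leave absorbing cells, was at 38.9 and 48.3 FPKM in small intestine, 15.6 and 8.13 in kidney, 12.6 and 12.9 in lung and 1.14 and 1.505 in liver. It was higher in small intestine by 2.598 ± 0.23 and lower in liver (-3.08 ± 0.23). In bulk tissue, fewer cells of a type and less RNA per cell cannot be told apart, which holds for all differences given here. The 2 intestine libraries differed in their acinar sum by over 2-fold, and its part in the intestinal values was not tested.

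Liver had the highest mean for 6 of the 51 members tested as deposited (11.8%, against 7.56% of all genes tested) and for 12 after scaling (23.5%, against 24.0%). Slc38a3 (SNAT3), which moves glutamine, asparagine and histidine in both directions in liver cells, was at 232 and 189 FPKM in liver, 9.53 and 8.27 in kidney, 0.263 and 0.201 in small intestine and 0.6599 and 0.2897 in lung. Slc38a4 (SNAT4), a sodium-coupled carrier of neutral amino acids such as alanine, was at 156 and 145 in liver, 2.95 and 1.98 in lung, 0.555 and 0.439 in kidney and 0.162 and 0.112 in small intestine. Both liver libraries stood far above all others. The differences were 6.33 ± 0.16 and 6.395 ± 0.15 as deposited and 7.11 and 7.32 scaled (adjusted p = 9.93e-08 and 8.45e-08, limma). Kidney, the second organ for Slc38a3, was above small intestine by 3.003 ± 0.19. Slc7a2 (CAT2), a carrier of arginine and lysine, was at 43.3 and 47.9 FPKM in liver, 4.83 and 3.797 in lung and 0.2804 to 0.648 in kidney and small intestine, a liver excess of 4.42 ± 0.15 (adjusted p = 4.56e-07, limma). The cationic carrier of most other cells, Slc7a1 (CAT1), was lowest in liver, at 0.0946 and 0.0672 FPKM, against 1.83 and 1.93 in small intestine, and was not called there.

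Slc38a2 (SNAT2), the carrier of small neutral amino acids that cells raise under amino acid shortage, was among the members detected in every organ. The lung libraries gave 33.1 and 33.4 FPKM, those of liver 31.1 and 25.3, those of small intestine 18.9 and 15.9 and those of kidney 10.5 and 4.67. Kidney was called lower with -1.71 ± 0.25 (adjusted p = 8.47e-04, limma), although its libraries differed over 2-fold. Slc38a1 (SNAT1) was called higher in small intestine with 1.01 ± 0.14, at the edge of the threshold, and lost the call without kidney replicate 2, small intestine replicate 1 or liver replicate 1. Slc38a10 differed little, from 7.12 to 14.3 FPKM over the 8 libraries, and neither it nor Slc38a6, Slc38a7 or the lysosomal Slc38a9 was called in any organ. Slc38a1, Slc38a2 and Slc38a4 lie in a row on chromosome 15, and their highest organs as deposited were lung, lung and liver. The first 2 depended on the scale: after scaling Slc38a1 was at 2.86 and 2.82 in small intestine against 2.097 and 2.11 in lung, and Slc38a2 reached 56.3 and 40.3 in liver, with 18.2 and 17.6 for lung.

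Lung had the highest mean for 24 of the 51 members tested as deposited (47.1%, against 61.4% of all genes tested) and for 15 after scaling (29.4%, against 29.1%), and 10 were called higher there. Slc43a3, an Slc43 member now known mainly as a purine carrier, led with 125 and 116 FPKM in lung against 3.36 to 9.26 elsewhere, a difference of 4.04 ± 0.21 as deposited and 2.896 scaled (adjusted p = 2.21e-06, limma). Slc1a5 (ASCT2), an exchanger of glutamine and other neutral amino acids, was at 46.8 and 41.8 FPKM in lung, 12.01 and 11.9 in small intestine, 7.64 and 3.13 in kidney and 0.628 and 0.557 in liver. It was higher in lung by 3.19 ± 0.26 and lower in liver, at -3.25 ± 0.26 (adjusted p = 1.77e-05 and 2.81e-05, limma). Slc38a5 (SNAT5), a glutamine carrier, was at 15.04 and 19.9 FPKM in lung and 0 to 0.286 elsewhere, and Slc36a2 (PAT2), a carrier of glycine and proline, at 13.2 and 12.8 and 0 to 0.131. Slc6a2, the noradrenaline carrier, was at 12.7 and 10.2 in lung and at most 0.0281 elsewhere. Like Slc7a10 and Slc6a14, these 3 genes reached a mean FPKM of 1 in lung alone. They passed the filter only through the lung libraries, so their lack of overlap with the other organs is no separate result.

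Genes of several other cell types were also high in the lung libraries as deposited. Endothelial genes (Pecam1, Cdh5 and Kdr) summed to 247 and 292 FPKM in lung and 5.42 to 12.7 elsewhere, B cell genes (Cd79a and Ms4a1) to 79.5 and 125 against at most 10.8, and cardiac muscle genes (Myh6, Tnnt2, Myl7 and Actc1) to 216 and 222 against at most 9.10. Erythroid genes summed to 10488 and 13423 FPKM in lung and 53.4 to 1287 elsewhere, nearly all from Hba-a1 and Hbb-bs. The third gene, Alas2, was higher in liver (35.5 and 31.6) than in lung (14.9 and 18.4). Adipoq, a defining gene of fat cells, was at 8.90 and 5.19 FPKM in lung, 4.18 and 2.43 in small intestine and at most 0.418 in kidney and liver, and Ucp1 of brown fat at 0 and 0.0492 in lung. The part of these cells in the lung values was not tested.

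The glutamate carriers of the Slc1 family were each high in a different organ. Slc1a1 (EAAC1, EAAT3), the apical carrier of glutamate and aspartate in kidney, was at 14.7 and 11.99 FPKM in kidney, 1.87 and 2.12 in small intestine, 2.22 and 2.11 in lung and 0.0354 and 0.0471 in liver. It was higher in kidney by 2.74 ± 0.14 (adjusted p = 6.01e-06, limma). Of its exon positions 31.9% are shared with 4430402I18Rik on the opposite strand, where reads of the 2 genes cannot be told apart. Slc1a2 (GLT-1) was at 7.17 and 5.42 FPKM in liver and 0.0813 to 0.374 elsewhere, and Slc1a3 (GLAST) at 3.67 and 3.68 in lung and 0.0383 to 1.33 elsewhere. Each was called higher in that organ alone, by 2.59 ± 0.13 and 1.78 ± 0.12 (adjusted p = 2.81e-06 and 7.45e-06, limma). The neuronal carriers Slc1a6 and Slc1a7 stayed at or below 0.1904 FPKM.

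Among the Slc6 carriers of transmitters and osmolytes, 6 of 10 were tested. Slc6a13 (GAT2), a carrier of GABA and taurine, was at 63.3 and 54.1 FPKM in liver, 29.1 and 25.05 in kidney, 0.147 and 0.0304 in small intestine and 0.282 and 0.166 in lung. Its neighbour Slc6a12 (BGT1), a carrier of betaine and GABA 5.342 kb away on chromosome 6, was at 18.4 and 18.3 in liver, 0.474 and 0.454 in kidney and 0.03500 to 0.101 in small intestine and lung. Both genes were thus highest in liver, where their differences were 4.16 ± 0.14 and 4.02 ± 0.12 (adjusted p = 3.90e-07 and 1.72e-07, limma), and Slc6a13 alone was also called in kidney (2.704 ± 0.14). Slc6a4, the serotonin carrier that enterocytes use to clear serotonin, was at 10.8 and 12.9 FPKM in small intestine, 1.605 and 1.74 in lung, 0.957 and 0.892 in kidney and 0 and 0.0214 in liver, an excess of 2.88 ± 0.13 in small intestine (adjusted p = 2.22e-06, limma). Slc6a6 (TauT), the taurine carrier, was found in all organs, at 38.3 and 21.4 FPKM in kidney, 13.5 and 22.2 in small intestine, 17.9 and 16.9 in lung and 8.04 and 9.61 in liver, and was called in none. Slc6a3, the dopamine carrier, was at 0 in all libraries but those of small intestine, with 21 reads in each of them.

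Not every member was high in an organ. In all, 15 of the 51 tested (29.4%, against 61.3% of all genes tested) were called higher in no organ. These were not all low, since Slc38a2, Slc6a6, Slc38a10 and Slc15a4 had a mean FPKM of 1 or more in all 4 organs. A further 20 members did not pass the filter. Of these, 6 stayed below 3 reads in every library, among them the transmitter carriers Slc6a5 and Slc6a11, and these 6 were not detectable at this depth. Slc15a5 had 23 and 32 reads in liver, 0.813 and 1.004 FPKM, and at most 1 read in any other library. In all 4 members carry symbols ending in os, which name a gene on the opposite strand of a carrier and not a carrier itself. Of these only Slc7a6os was tested, with 3.16 to 9.95 FPKM over the 8 libraries and no call.

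The 2 kidney libraries differed in level. Of 28 members with a mean of 1 or more in kidney, 27 had the higher value in replicate 1 as deposited, with a median ratio of 1.49, and the exception was Slc7a13. After scaling, 16 of the 28 were higher in replicate 1 and the median ratio was 1.04. In all 5 members differed over 2-fold as deposited and 1 after scaling, Slc36a1. Among the 5, those at a mean of 5 or more were Slc1a5, Slc36a1 and Slc38a2. As deposited, the proximal tubule genes of segments S1 and S2 summed to 1236 FPKM in replicate 1 and 789 in replicate 2, those of S3 to 181 and 180.5, those of the thick ascending limb to 892 and 610, and those of the collecting duct to 152 and 178. The genes of S3 parted, with Slc5a8 at 50.8 and 31.9, Cyp7b1 at 58.9 and 67.3 and Slc22a7 at 71.1 and 81.3. So did those of the collecting duct, with Aqp2 at 80.1 and 120, Aqp3 at 45.7 and 33.4 and Atp6v1g3 at 25.8 and 24.2. Of the genes of the distal convoluted tubule, Slc12a3 was at 84.0 and 17.7 FPKM and Pvalb at 7.57 and 8.10. Erythroid genes (Hba-a1, Hbb-bs and Alas2) summed to 467 and 1287. Their part in the difference between the libraries was not tested.

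Promoters of the members were read from RefSeq (GRCm38.p6), from 250 bases before to 50 after each start site, and were found for 53 of the 71 members. The half-site of HNF1, a factor of kidney tubule, gut and liver epithelium, was searched as GTTAAT on both strands. It occurs in the promoters of 8.24% of all 27025 genes and of 13.2% of the members. Of the 16 members with a promoter that were called higher in kidney or small intestine, 6 (37.5%) held it. Of the other 37 members 1 (2.7%) did, and both shares describe these windows and are not evidence of binding. The other 37 include members that were not tested, among them Slc6a16, the only one with the half-site. Among members called higher in kidney alone, Slc7a13, Slc6a18, Slc6a15 and Slc7a12 had no window, and those of Slc1a1, Slc15a2 and Slc6a20b held no half-site. A gene was counted if any of its windows held the letters, and by window these shares were 24% of 25 and 2.04% of 49, against 7.1% of all 32851. The 6 were Slc3a1, Slc7a7, Slc6a20a, Slc7a15, Slc36a1 and Slc6a13. The HNF4 motif CAAAGTCCA and the CDX2 motif CAATAAA, searched in the same way, were each found in 1 member, Slc3a1, and in 0.555% and 5.33% of all genes. The motif TGATGNAA of the amino acid response factor ATF4 was found for 5 members (9.43%, against 4.51% of all genes), with 2 copies at 66 and 47 bases before the start of Slc7a11. The windows of Slc3a1 (chr17:85028097-85028396, plus strand), Slc7a7 (chr14:54409423-54409722, minus strand), Slc6a20a (chr9:123678783-123679082, minus strand), Slc6a20b (chr9:123632489-123632788, minus strand) and Slc7a15 (chr12:8599017-8599316, minus strand) are shown as examples of the shared, the intestinal and the renal genes described above. The windows of the shared Slc6a19, Slc7a8 and Slc7a9 and of the intestinal Slc15a1 held no half-site and are not shown. Capitals mark the motifs, with the HNF1 half-site read as GTTAAT or, from the other strand, ATTAAC, and in Slc3a1 also CAAAGTCCA and TTTATTG, the other strand of the CDX2 motif.
Slc3a1: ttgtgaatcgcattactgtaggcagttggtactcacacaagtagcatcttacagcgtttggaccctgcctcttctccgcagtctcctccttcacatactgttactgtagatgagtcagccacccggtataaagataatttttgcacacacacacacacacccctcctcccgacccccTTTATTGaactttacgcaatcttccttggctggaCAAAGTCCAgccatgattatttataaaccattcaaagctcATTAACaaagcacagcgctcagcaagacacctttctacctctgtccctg
Slc7a7: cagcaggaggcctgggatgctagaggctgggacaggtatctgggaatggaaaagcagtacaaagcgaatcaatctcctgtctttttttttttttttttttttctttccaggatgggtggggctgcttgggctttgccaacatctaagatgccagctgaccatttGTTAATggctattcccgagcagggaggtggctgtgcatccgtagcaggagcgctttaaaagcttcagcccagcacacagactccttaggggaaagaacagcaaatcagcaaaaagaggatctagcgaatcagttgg
Slc6a20a: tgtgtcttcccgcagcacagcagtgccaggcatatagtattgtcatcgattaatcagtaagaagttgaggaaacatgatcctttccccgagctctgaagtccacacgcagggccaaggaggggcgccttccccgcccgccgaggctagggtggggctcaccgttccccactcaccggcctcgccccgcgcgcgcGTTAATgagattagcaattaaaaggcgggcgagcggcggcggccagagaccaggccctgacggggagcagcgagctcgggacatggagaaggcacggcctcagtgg
Slc6a20b: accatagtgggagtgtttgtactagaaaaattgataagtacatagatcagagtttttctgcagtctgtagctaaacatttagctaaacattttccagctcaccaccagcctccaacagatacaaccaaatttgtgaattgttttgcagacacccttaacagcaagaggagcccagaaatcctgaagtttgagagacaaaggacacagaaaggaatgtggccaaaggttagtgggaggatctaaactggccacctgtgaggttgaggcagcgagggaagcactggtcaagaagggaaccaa
Slc7a15: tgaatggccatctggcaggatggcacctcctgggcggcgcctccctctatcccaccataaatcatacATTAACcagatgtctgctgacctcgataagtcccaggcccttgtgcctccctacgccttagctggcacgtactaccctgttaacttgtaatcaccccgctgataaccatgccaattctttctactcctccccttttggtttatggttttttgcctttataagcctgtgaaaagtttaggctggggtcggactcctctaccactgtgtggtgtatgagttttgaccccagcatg
In the windows shown, the half-site begins 86 bases before the start in Slc7a7, 56 before it in Slc6a20a and 183 before it in Slc7a15, and lies just after the start in Slc3a1. Slc7a7 has 5 windows, Slc7a15 has 2 and Slc6a13 has 3, of which 1 each holds the half-site, while Slc3a1, Slc6a20a and Slc36a1 have 1 window. The window of Slc6a20b, the renal gene of the pair, holds none of the 4 motifs.

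Other amino acid carriers outside these families were taken from a list of 16 genes, of which 11 were tested. In kidney 2 were called higher and 1 lower (8.62% and 11.9% of all genes), in small intestine 3 higher and 1 lower (12.8% and 10.5%), in liver 3 higher (6.56%), and in lung 4 lower (8.26%). Slc25a13, the aspartate and glutamate carrier of mitochondria that serves the urea cycle, was called higher in both liver (29.6 and 29.9 FPKM) and kidney (21.1 and 15.7). Slc25a15, the ornithine carrier, reached 36.3 and 37.99 FPKM in liver, with 31.8 and 29.0 in small intestine against 1.44 and 1.63 in lung. Slc16a10 (TAT1), which releases aromatic amino acids, was higher in small intestine, at 19.7 and 17.5 FPKM. Of the 8 genes of the amino acid response, 2 were higher (Sesn2 and Psat1) and 1 lower (Trib3) in kidney, 1 was higher in small intestine (Asns, 8.24 and 6.39 FPKM), and 2 were lower in liver (Psat1 and Phgdh). These are 25% and 12.5% of the 8 genes in kidney (8.62% and 11.9% of all genes), 12.5% in small intestine (12.8%) and 25% in liver (13.9%). In lung limma called 0. At an unadjusted p under 0.05 on both scales, 2 were higher and 5 lower in kidney, 5 higher and 1 lower in small intestine, 1 higher and 5 lower in liver, and 2 higher in lung. The calls of limma-voom were 3 higher and 3 lower in kidney, 3 higher in small intestine, 1 higher and 2 lower in liver, and 1 higher in lung.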

How the data were processed

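The 8 libraries were polyadenylated RNA of 4 mouse tissues. The authors mapped reads with STAR 2.5.3a to the mouse genome of Ensembl release 75 and deposited FPKM values, normalized by library size, for 52195 genes. The counting program, its use of strand and its treatment of reads with several matches are not given in the sources used here, and the table's symbols are of a later annotation. Tissue and replicate number came from the labels, and each column was matched by name. Members were the table's rows of the 8 families. The members and all lists (roles, pathway genes, markers) were chosen with earlier results of these data known. All 71 symbols matched 1 gene of GENCODE M21 (GRCm38), which gave coordinates, exon lengths, overlaps and words of 31 bases. Reads were recovered from the steps of low values (94.5% to 96.1% whole within 0.02 reads in a library), and floors of 3 reads cover counting error only.

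Values were transformed to log2(FPKM + 1) and fitted with limma 3.58.1 in R 4.3.3 (lmFit, eBayes with a trend) over all 8 libraries and 16328 genes that reached an FPKM of 1 in 2 or more libraries, once as deposited and once scaled by the median of ratios. A call needed, in both fits, a log2 difference over 1 in size and a p under 0.05 after Benjamini-Hochberg adjustment. Ratios within a library were tested by exact permutation over the choices of 2 of 8 libraries. The fit was tested on simulated data first. Named genes were members with a mean of 20 FPKM or more in a tissue, the 4 largest calls in each direction of each comparison, the genes of the ratios, and members whose 2 libraries differed over 2-fold at a mean of 5 or more. Other members are given by role. Promoters were RefSeq windows (GRCm38.p6). Python 3.11.15, numpy 2.4.6, pandas 2.3.3, scipy 1.17.1 and matplotlib 3.10.9 were used. Alternatives changed the scaling, pseudocount, filter, trend, block, model and libraries included. The 2 libraries of an organ come from separate mice, but libraries of different organs may share a mouse and may not be independent. With n of 2, the error is only a first estimate of the spread between mice.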

Additional observations from a re-analysis of the deposited data

How the results depend on the processing

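The 95 calls of named members gave 1468 values under the alternatives, of which 1453 kept their direction and call, 15 kept the direction but fell short of the call, and 0 reversed. Each scale alone had to keep all 95, since a call needed both scales. Members that were no longer tested after a library was left out gave no value. With a pseudocount of 0.1 the members called lower were 17 in kidney, 20 in small intestine and 11 in kidney against small intestine. The log2 ratio of Slc15a1 to Slc15a2 then became -5.13 in kidney, from -6.22. In small intestine, where replicate 2 had 2 reads of Slc15a2, it became 7.70, from 9.03. In liver it became -0.15, from -2.22 in the 1 library with a value, and in lung -3.46, from -3.80. limma-voom on the recovered reads called 17 lower in kidney, 16 higher in lung and 12 lower in kidney against small intestine. Median-of-ratios scaling alone called 10 higher in liver and the deposited scale alone 19 higher in lung. Over all genes, the deposited scale alone called 6652 higher in lung and 5334 lower in liver, against 2387 and 2271 by the rule of both scales, and scaling alone called 2003 higher in liver and 2616 lower in lung, against 1071 and 1348. The share of higher among all calls was 63.9% in lung, 83.1% on the deposited scale and 47.7% scaled, and 32.05% in liver, 16.7% and 46.8%. The pseudocount of 0.1 called 3474 genes lower in kidney, 2893 in small intestine and 4298 in liver, against 1935, 1712 and 2271, and 3889 higher in lung. limma-voom called 3406 lower in kidney and 4072 higher in lung, and leaving out lung replicate 2 left 1585 higher in lung. Except for the counts under 1 scale alone, which drop a condition of the call, and the losses to the filter given next, the cause of these changes was not tested. Leaving out 1 library at a time gave 7 to 11 lower in kidney, 4 to 10 higher in lung and 4 to 10 lower in kidney against small intestine. The calls lower in kidney and higher in lung that were lost without either lung library were of members that no longer passed the filter. Without small intestine replicate 2 this held for 2 of 3 lost calls, and without kidney replicate 1 there were 3 more calls lower in kidney against small intestine, the cause of which was not tested. The log2 difference of the Slc3a1 ratio in small intestine, 0.40, ranged from -0.247 to 0.850 and turned negative without liver replicate 1 (-0.247) or liver replicate 2 (-0.149). All 4 tissues were taken from each mouse, and the labels give them the same replicate numbers without saying that a number marks a mouse. The deviations of equally numbered libraries had correlations of -0.22 to 0.05. These cannot decide whether a number marks a mouse, since a mouse may deviate differently in each organ. As the labels do not say so, the numbers were not taken as pairs. A fit with the replicate block called 13 members higher in kidney and changed no call of a named member. The lone library left in an organ is assumed to vary like the others. Values under 3 reads are not detectable at this depth.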
